A study of Mus musculus with 9 samples.

Results

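The genes described are 10 iron handling genes of the mouse, out of 21853 protein-coding genes in the tables, and all 10 were found and passed the filter on low values. They are the ferritin subunits Fth1 and Ftl1, the iron carrier Trf and its receptor Tfrc, the transporters Slc11a2 and Slc40a1, the ferroxidase Cp, the iron regulatory proteins Aco1 and Ireb2, and the haem-degrading enzyme Hmox1. They were chosen by function, with the expression results of these 9 libraries in view, so their own differences are given as a description, with no p-value. Where a member is said to be called, this states only on which side of the threshold it fell in the fit across all genes, and nothing is read from it.

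The 9 libraries of mouse brain poly(A) RNA fall into 3 groups of 3. WT-Control libraries came from wild-type mice given an adeno-associated virus (AAV) with mCherry behind a GFAP promoter. HD-Control libraries came from N171-82Q mice given the same virus, and HD-WNT5B libraries from N171-82Q mice given a virus with WNT5B behind a GFAP promoter. N171-82Q is a Huntington's disease (HD) line that expresses an N-terminal fragment of human huntingtin with a long glutamine tract behind a prion protein promoter, and the GFAP promoter is active mainly in astrocytes, so all 3 groups carried an AAV and both HD groups carried the transgene. The series text places the WNT5B injection in the striatum, whereas the sample labels name only brain, with no region, age or sex. The labels do not say whether each library came from a separate animal, so the spread between libraries may be technical.

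Iron enters most brain cells as transferrin bound to the transferrin receptor, is moved out of the endosome by Slc11a2, is stored inside ferritin shells of heavy and light chains, and leaves through the exporter Slc40a1 (ferroportin) with the help of a ferroxidase. When iron is scarce, the iron regulatory proteins bind hairpins called iron responsive elements. Bound hairpins in the 5′ UTR block translation of the mRNA, and bound hairpins in the 3′ UTR of Tfrc protect the mRNA from decay. Oligodendrocytes hold much of the iron and of the transferrin mRNA of the adult brain.

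The hairpins are shown because their place, in the 5′ or the 3′ UTR, bears on whether bound regulators act on translation or on mRNA decay. They do not sort all members by how iron acts on them. They were read from the GENCODE M21 transcripts of mm10, 5′ to 3′ on the transcript strand, with the loop in capitals. The search asked for a CAGTGN loop between 5 paired bases on each side (G-U pairs allowed), with an unpaired C before the stem, in sites of 27 bases.
Fth1 5′ UTR, chr19:9982733-9982759, plus strand: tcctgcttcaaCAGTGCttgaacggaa
Ftl1 5′ UTR, chr7:45459780-45459806, minus strand: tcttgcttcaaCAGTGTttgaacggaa
Slc40a1 5′ UTR, chr1:45925466-45925492, minus strand: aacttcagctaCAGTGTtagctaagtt
Tfrc 3′ UTR, chr16:32631220-32631246, plus strand: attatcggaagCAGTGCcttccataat
Tfrc 3′ UTR, chr16:32631599-32631625, plus strand: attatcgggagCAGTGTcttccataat
Tfrc 3′ UTR, chr16:32631664-32631690, plus strand: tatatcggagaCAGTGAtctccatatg
Tfrc 3′ UTR, chr16:32631711-32631737, plus strand: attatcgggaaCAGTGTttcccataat

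The Fth1 site lies in transcript Fth1-203. The same search matched the 5′ UTR of 31 of 21853 genes (0.142 percent) and the 3′ UTR of 128 (0.59 percent), and 4 of the 10 members held a match, 3 in the 5′ UTR and 1 in the 3′ UTR. Among the other genes listed below, Alas2 held one in the 5′ UTR and Bola3 in the 3′ UTR. A match is a description of the sequence, and the lack of one in the other 6 members says only that the search found none in their annotated UTRs. A hairpin with an unpaired or bulged base in the upper stem would be missed, so these members may still carry an iron responsive element.

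The values are normalized read counts, not divided by gene length. The libraries labelled HD-WNT5B stood apart from the rest: from the spacing of their low values they held an estimated 37.3 to 52.1 M reads against 67.8 to 90.6 M in the other 6, and they had 14291 to 14588 genes above 0 against 17027 to 17349. The median SD of log2 values between replicates (genes with a mean of at least 100) was 0.039 in WT-Control, 0.032 in HD-Control and 0.228 in HD-WNT5B. Mouse Wnt5b was 57.7 to 74.6 in WT-Control, 44.2 to 63.8 in HD-Control and 184, 22.5 and 212 in HD-WNT5B replicates 1, 2 and 3, so that the library labelled HD-WNT5B replicate 2 lay below all controls, and the labels do not say from which species the WNT5B cargo was taken. The 13 neuron markers, none of them at 0 in any library, summed to 520016 to 524240, 492280 to 497057 and 262826 to 273762 in the 3 groups. The sum is set by the abundant ones: in HD-WNT5B against HD-Control 4 of the 13 were called higher and 7 lower, with a median log2 difference of -0.09. Over all tested genes, 35.8 percent were called higher and 41.7 percent lower in that comparison. A difference between HD-WNT5B and HD-Control also moved with transcript length: the median log2 difference was 1.88 for 973 genes with a principal transcript under 1000 bases, 0.63 from 1000 to below 2000 bases, -0.25 from 2000 to below 4000 bases and -0.92 at 4000 bases or more. For HD-Control against WT-Control the 4 medians were 0.06, 0.06, 0.02 and -0.01. Because fewer cells of a type and less RNA per cell cannot be told apart in bulk tissue, all values below are levels in the tissue.

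A gene is called where the Benjamini-Hochberg adjusted p of the limma fit was under 0.05 over 15411 genes. Differences (log2) are on the scale of log2 of the value plus 3, with the standard error (SE) of that fit. In HD-Control against WT-Control, 5 of the 10 members were called (4 higher, 1 lower) where 45.1 percent of all tested genes were called, 24.5 percent higher and 20.7 percent lower. The 2 groups did not overlap for any of the 10 members, as for 84 percent of all tested genes. The members' median log2 difference was 0.35, and that of all tested genes was 0.02. In HD-WNT5B against HD-Control, 9 members were called (4 higher, 5 lower) where 77.5 percent of all genes were called, 35.8 percent higher and 41.7 percent lower. The groups did not overlap for 9 members, against 78.7 percent of genes, and the medians were -0.53 for the members and -0.23 for all genes. In HD-WNT5B against WT-Control, 9 were called (3 higher, 6 lower) where 77.9 percent of all genes were called, 35.9 percent higher and 42.1 percent lower, with medians of -0.76 and -0.25. Without HD-WNT5B replicate 2, the 9 members called in HD-WNT5B against HD-Control kept their direction and call, and Aco1 gained a call. Because the rule chose the members with these contrasts in view, nothing is read from these counts. The 2 comparisons with HD-Control share its libraries. The deposited values summed to 79.9 to 83.8 M in the HD-WNT5B libraries and 54.6 to 55.8 M in all others. With equal library totals, the median of all genes moved to -0.76 in HD-WNT5B against HD-Control and the share of called genes that were higher moved from 46.2 to 32.2 percent. The corresponding share in HD-WNT5B against WT-Control moved from 46.0 to 31.8 percent.

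**Figure D1:**
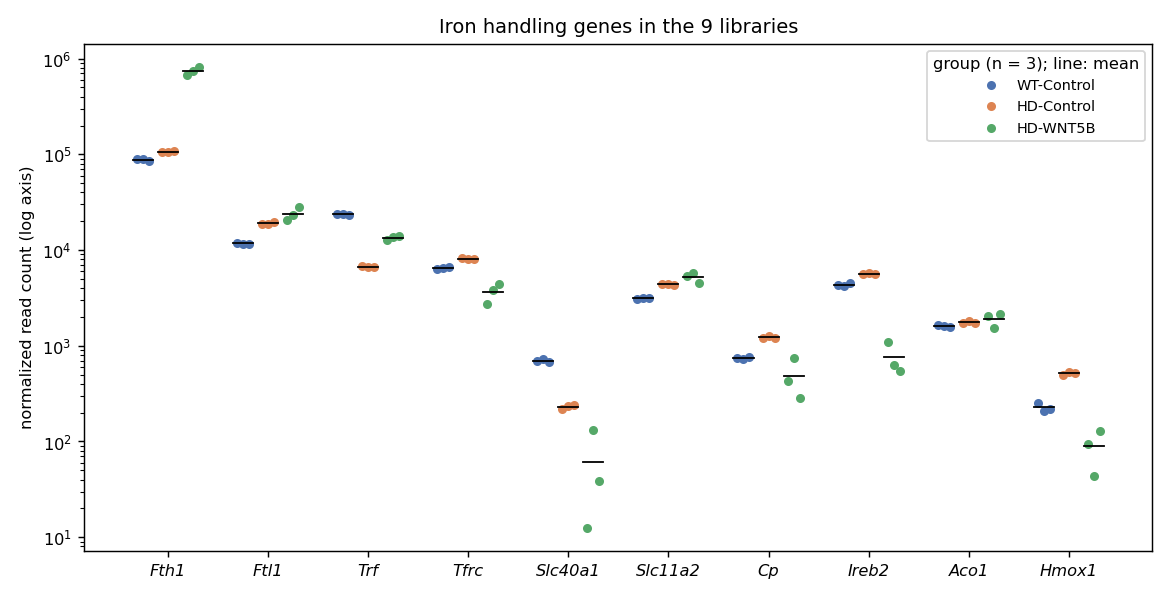
Normalized read count (log axis) of the 10 iron handling genes in each of the 9 libraries, with a point per library and a line at each group mean (n = 3 per group). Fth1 reaches 675938 to 816515 in HD-WNT5B, and Trf is lowest in HD-Control, at 6580 to 6747.

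The ferritin heavy chain dominated the set. Fth1 (ENSMUSG00000024661.7, mm10 chr19:9980598-9985098, plus strand), whose chain carries the ferroxidase activity of ferritin, was 88626, 89245 and 85375 in the WT-Control libraries and 106006, 106513 and 108460 in the HD-Control libraries. In HD-WNT5B it was 675938, 745407 and 816515. The 3 groups did not overlap, every HD-WNT5B library lay above every other library, and both HD groups lay above WT-Control. The log2 difference was 0.29 (SE 0.06) in HD-Control against WT-Control and 2.80 (SE 0.06) in HD-WNT5B against HD-Control, a 6.97-fold ratio of means, and both were called. Per kilobase of principal transcript, Fth1 ranked 2 among all genes in each WT-Control and HD-Control library and 1 in each HD-WNT5B library. Its principal transcript has 929 bases, in the length class whose median difference was 1.88. With the trend on transcript length and GC content removed from each library, an alternative chosen after seeing the data, its HD-WNT5B difference was 1.58 (SE 0.04), and with equal library totals it was 2.24, so it was called under both.

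The light chain moved less. Ftl1 (ENSMUSG00000050708.16, chr7:45457944-45459884, minus strand), which supports growth of the iron core, was 11911, 11630 and 11600 in WT-Control and 18879, 18749 and 19514 in HD-Control. It was 20537, 23175 and 28443 in HD-WNT5B. Every HD-Control library lay above every WT-Control library, and every HD-WNT5B library lay above both. The HD-Control difference was 0.70 (SE 0.10) and was called. The HD-WNT5B difference from HD-Control, 0.32 (SE 0.10), was called higher at the deposited scale, was -0.23 and not called with equal library totals, and was called lower, at -1.17, with the length and GC trend removed; against WT-Control it was 1.02 and -0.54 with the trend removed. The direction of Ftl1 in HD-WNT5B therefore depends on these choices. An annotated near-copy, Ftl1-ps1, had values of at most 25.1, and 34.63 percent of the exon bases of Ftl1 are shared with Gm10252 on the other strand and Gm22133, from which these unstranded libraries cannot separate its reads.

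The per-kilobase ratio of heavy to light chain mRNA separated the groups. Fth1 over Ftl1 was 7.753, 7.996 and 7.669 in WT-Control, 5.85, 5.92 and 5.79 in HD-Control, and 34.3, 33.5 and 29.9 in HD-WNT5B. The means were 7.81 ± 0.17, 5.85 ± 0.064 and 32.6 ± 2.34 (SD, n = 3). Both transcripts are of nearly the same length (929 and 968 bases), and a ratio within a library does not depend on library totals.

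**Figure D2:**
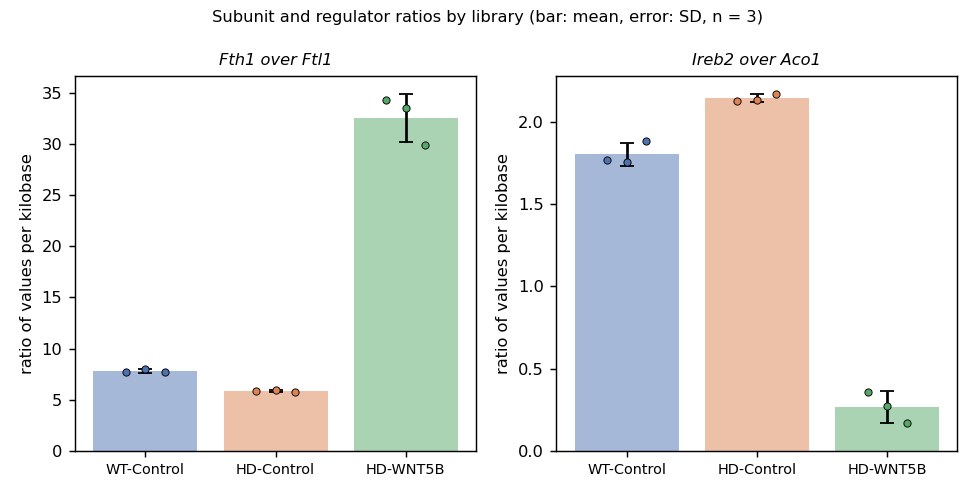
Ratio of values per kilobase in each library (points), with group means (bars, from 0) and SD (n = 3 per group). Fth1 over Ftl1 stands at 29.9 to 34.3 in HD-WNT5B and 5.79 to 7.996 elsewhere, and Ireb2 over Aco1 falls from 2.14 in HD-Control to 0.265 in HD-WNT5B.

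Transferrin showed the reverse order in the control-virus groups. Trf (ENSMUSG00000032554.15, chr9:103204001-103230444, minus strand), the extracellular iron carrier, was 23623, 23554 and 23460 in WT-Control and 6747, 6580 and 6616 in HD-Control, 3.54-fold lower. In HD-WNT5B it was 12614, 13648 and 13932, 2.02-fold above HD-Control and below WT-Control, with no overlap between any of the groups. The log2 differences were -1.82 (SE 0.04) in HD-Control against WT-Control, 1.01 (SE 0.04) in HD-WNT5B against HD-Control and -0.81 in HD-WNT5B against WT-Control, all called. The HD-WNT5B difference from HD-Control was 0.46 with equal library totals and 1.15 with the length and GC trend removed, called in both. Of the exon bases of Trf, 63.49 percent are shared with Gm20425, a gene model on the same strand, which was 640 to 703 in WT-Control, 249.9 to 322 in HD-Control and near 0 in HD-WNT5B.

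Oligodendrocyte markers were also lower in HD-Control than in both other groups: their 12 genes summed to 478597 to 483579 in WT-Control, 342246 to 344633 in HD-Control and 765453 to 811727 in HD-WNT5B. Of the 12, 11 were lower in HD-Control than in WT-Control and none higher, and in HD-WNT5B against HD-Control 8 were higher and 4 lower. Over all tested genes, 24.5 percent were called higher and 20.7 percent lower in HD-Control against WT-Control. In HD-WNT5B against HD-Control the shares were 35.8 and 41.7 percent. The counts of every marker list are to be read beside these shares. Of the 8 markers of the choroid plexus, a tissue that also makes transferrin, 1 was higher (Kcne2), 1 lower (Enpp2) and 6 not called in HD-Control against WT-Control, with a median of 0.15. In HD-WNT5B against HD-Control 3 were higher and 2 lower, with a median of 0.32. Their sum was 12977 to 13297, 5985 to 6130 and 16915 to 20766 in the 3 groups, and Aqp1 was at 0 in HD-WNT5B replicates 2 and 3 and 34.0 in replicate 1. That sum moved mainly with Enpp2 (means of 11249, 4121 and 4431) and Ttr (693, 679 and 12656), so it does not describe the list as a whole. The part of these markers in the Trf values was not tested.

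At the deposited scale the receptor was highest in HD-Control, where its ligand was lowest. Tfrc (ENSMUSG00000022797.16, chr16:32608920-32632794, plus strand), the transferrin receptor with the 4 hairpins in its 3′ UTR, was 6289, 6474 and 6674 in WT-Control and 8162, 8109 and 8134 in HD-Control. It was 2726, 3820 and 4437 in HD-WNT5B, below every other library. The HD-Control difference of 0.33 (SE 0.15) was not called although the libraries did not overlap, in a fit that shares 1 spread with the HD-WNT5B libraries. The HD-WNT5B difference from HD-Control was -1.18 (SE 0.15) and called. With the length and GC trend removed it was 0.17 and not called, and the difference from WT-Control turned from -0.85 to 0.58; its transcript has 4890 bases, in the length class whose median was -0.92. Trf over Tfrc per kilobase was 6.92 ± 0.23 in WT-Control, 1.55 ± 0.016 in HD-Control and 7.19 ± 1.45 in HD-WNT5B. Tfrc over Fth1 per kilobase was 0.0140 ± 0.00072, 0.0144 ± 0.00019 and 0.00092 ± 0.00014 (SD, n = 3). Both ratios pair transcripts of unlike length (2571 bases for Trf, 4890 for Tfrc and 929 for Fth1), so they carry the length trend of HD-WNT5B. With the length and GC trend removed, the differences from HD-Control were 1.15 for Trf, 0.17 for Tfrc and 1.58 for Fth1. Against WT-Control they were -0.65, 0.58 and 1.79.

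Slc11a2 (ENSMUSG00000023030.16, chr15:100387898-100425072, minus strand), the divalent metal transporter that takes ferrous iron across endosomal and plasma membranes, was 3076, 3162 and 3146 in WT-Control and 4418, 4383 and 4306 in HD-Control. It was 5359, 5779 and 4544 in HD-WNT5B. The groups were in that order without overlap. The HD-Control difference was 0.48 (SE 0.08) and called. The HD-WNT5B difference from HD-Control of 0.25 (SE 0.08) was called higher, was called lower at -0.30 with equal library totals, was 0.56 with the length and GC trend removed, and lost its call without HD-Control replicate 3, at 0.24. Against WT-Control the difference was 0.73 and called, and 0.15 and not called with equal library totals.

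The exporter was lower in both HD groups than in WT-Control in every library. Slc40a1 (ENSMUSG00000025993.10, chr1:45908068-45926523, minus strand), the only known cellular iron exporter of mammals, was 685.5, 726.0 and 678.7 in WT-Control and 218.4, 235.2 and 238.9 in HD-Control, 3.02-fold lower. It was 12.5, 133.3 and 38.6 in HD-WNT5B, below all other libraries but spread over a wide range. The HD-Control difference was -1.58 (SE 0.65), not called in the shared fit and called with a weight per group. Against HD-Control the HD-WNT5B difference was -2.39 (SE 0.65) and called; it was -1.44 and not called with the length and GC trend removed, -1.63 (SE 0.43) without HD-WNT5B replicate 1 and -3.20 (SE 0.37) without replicate 2, called in both. Microglia, macrophages and oligodendrocytes carry much ferroportin mRNA. The 12 microglia markers summed to 37749 to 38019 in WT-Control, 19536 to 19548 in HD-Control and 49259 to 54959 in HD-WNT5B. Within that sum Cx3cr1 had means of 4765, 588 and 19940. Of the 12, 10 were lower and 0 higher in HD-Control against WT-Control, and 6 were higher and 1 lower in HD-WNT5B against HD-Control. In HD-WNT5B against WT-Control 4 were higher and 7 lower (median log2 difference -0.79), beside 35.9 and 42.1 percent of all genes. The markers did not move together there, and their part in the Slc40a1 values was not tested.

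Cp (ENSMUSG00000003617.16, chr3:19957054-20009145, plus strand), ceruloplasmin, the copper ferroxidase of astrocytes and plasma, was 742.5, 721.2 and 764.1 in WT-Control and 1213, 1258 and 1197 in HD-Control. It was 427.5, 737.3 and 285.2 in HD-WNT5B, below HD-Control throughout, with replicate 2 inside the WT-Control range. The HD-Control difference of 0.72 (SE 0.29) was not called in the shared fit and was called with a weight per group. The HD-WNT5B difference from HD-Control was -1.44 (SE 0.29) and called, but was -0.32 and not called with the length and GC trend removed; against WT-Control it was -0.72 and called, and 0.41 and not called with the trend removed. The astrocyte markers summed to 369361 to 372591, 242173 to 243546 and 187464 to 202917 in WT-Control, HD-Control and HD-WNT5B. Of the 10, 1 was higher and 7 lower in HD-Control against WT-Control, and 2 were higher and 6 lower in HD-WNT5B against HD-Control, and their part in the Cp values was not tested.

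Ireb2 and Aco1 encode the 2 iron regulatory proteins, IRP2 and IRP1, of which IRP2 is removed by the FBXL5 ubiquitin ligase when iron is plentiful and IRP1 doubles as the cytosolic aconitase. Ireb2 (ENSMUSG00000032293.8, chr9:54863789-54912530, plus strand) was 4336, 4251 and 4489 in WT-Control and 5589, 5756 and 5604 in HD-Control. It was 1096, 626 and 540 in HD-WNT5B, below every other library, 7.49-fold under the HD-Control mean. The HD-Control difference of 0.37 (SE 0.22) was not called in the shared fit. Against HD-Control the HD-WNT5B libraries differed by -2.97 (SE 0.22) and called, and -1.51 (SE 0.18) and called with the length and GC trend removed.

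Aco1 (ENSMUSG00000028405.9, chr4:40143081-40198338, plus strand) was called in no comparison. It was 1631, 1608 and 1586 in WT-Control, 1746, 1796 and 1715 in HD-Control, and 2036, 1529 and 2162 in HD-WNT5B, where replicate 2 lay below all other libraries. The log2 differences were 0.12 (SE 0.12) in HD-Control against WT-Control, 0.11 in HD-WNT5B against HD-Control and 0.23 in HD-WNT5B against WT-Control. Its sign in HD-WNT5B against HD-Control depended on the scale, at -0.45 with equal library totals and 0.58 with the length and GC trend removed, and it was 0.26 without HD-WNT5B replicate 2, called in each of these 3. Ireb2 over Aco1 per kilobase was 1.80 ± 0.069 in WT-Control, 2.14 ± 0.025 in HD-Control and 0.265 ± 0.096 in HD-WNT5B. Their transcripts, of 5770 and 3832 bases, are in length classes with HD-WNT5B medians of -0.92 and -0.25, so this ratio also carries the length trend.

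Hmox1 (ENSMUSG00000005413.8, chr8:75093621-75100589, plus strand), haem oxygenase 1, the inducible enzyme that frees iron from haem, was 253.4, 209.2 and 217.5 in WT-Control and 498.3, 528.0 and 516.5 in HD-Control, 2.27-fold higher. It was 94.8, 43.4 and 128.7 in HD-WNT5B, below every other library. The HD-Control difference was 1.18 (SE 0.35) and called, and lost the call when any single WT-Control or HD-Control library was left out, at 1.12 to 1.26. In HD-WNT5B against HD-Control it was -2.62 (SE 0.35) and called, and -3.10 with the length and GC trend removed. Its transcript, of 1569 bases, is in a length class with a median of 0.63. Red blood cell genes, whose level reflects blood in the tissue, summed to 3224 to 3286, 958 to 1030 and 10616 to 13197 in WT-Control, HD-Control and HD-WNT5B. All 5 were lower in HD-Control than in WT-Control. In HD-WNT5B against HD-Control 4 of 5 were higher, and Hbb-bt was not called, at 0.35 (SE 0.57). The globin transcripts among them, of 554 to 703 bases, are in the length class whose median in that comparison was 1.88. The part of the red blood cell genes in the haem-related values was not tested.

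**Figure D3:**
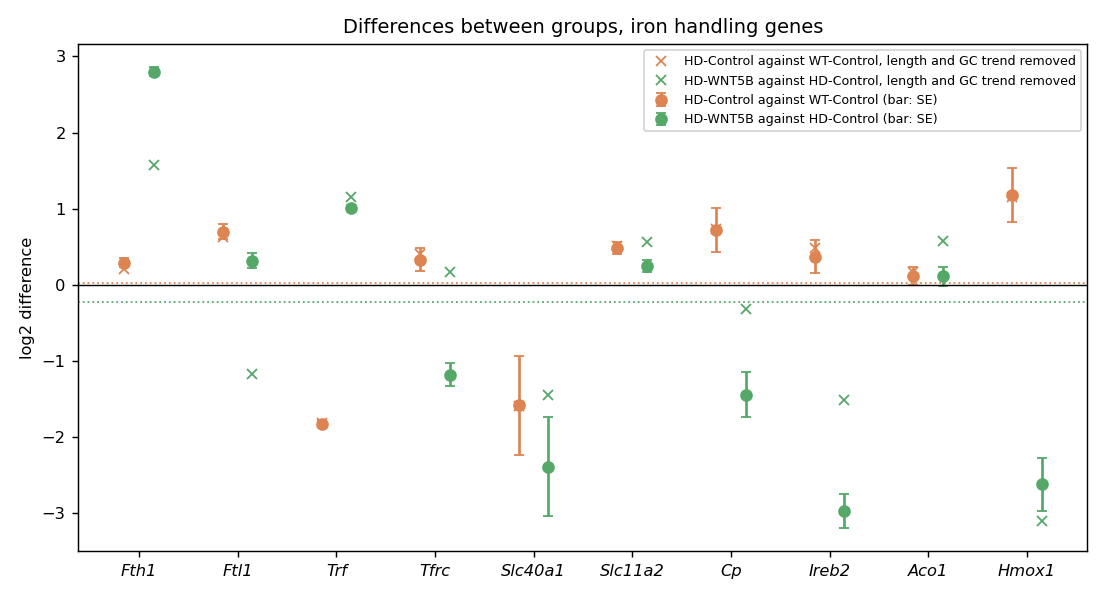
Log2 difference of the 10 members in 2 comparisons (points, bars are SE of the limma fit), with the value after removal of the length and GC trend (crosses) and the median of all tested genes (dotted lines, 0.02 and -0.23). Ftl1 and Tfrc are the members whose HD-WNT5B cross and point lie on opposite sides of 0.

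**Figure D4:**
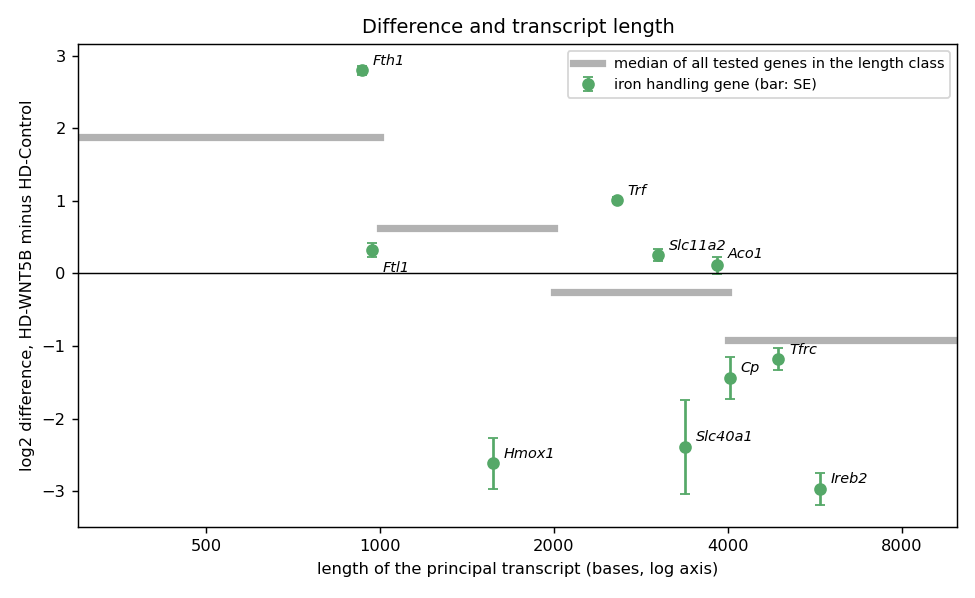
Log2 difference in HD-WNT5B against HD-Control (bars are SE) against the length of the principal transcript (log axis), with grey lines at the median of all tested genes in each length class. Fth1 lies above its class median of 1.88, and Hmox1, at -2.62, lies under a class median of 0.63.

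Per kilobase, the order of mean levels was Fth1, Ftl1, Trf, Tfrc, Slc11a2, Ireb2, Aco1 in both control-virus groups, and neighbours in that order did not overlap between libraries. In WT-Control they were followed by Slc40a1, Cp and Hmox1, and in HD-Control by Hmox1, Cp and Slc40a1. In HD-WNT5B the order was Fth1, Ftl1, Trf, Slc11a2, Tfrc, Aco1, Ireb2, Cp, Hmox1 and Slc40a1, and the pairs Tfrc and Aco1, Ireb2 and Cp, Cp and Hmox1, and Hmox1 and Slc40a1 overlapped. Fth1 was at 94455 ± 2238, 115170 ± 1395 and 802964 ± 75662 per kilobase (SD, n = 3) in WT-Control, HD-Control and HD-WNT5B, and Slc40a1 at 207 ± 7.59, 68.5 ± 3.23 and 18.2 ± 18.9.

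Genes with the pattern most like 4 of the members were found by Pearson's r of log2 values over the 9 libraries. These were Cox6a1 (0.9999) and Rpl41 (0.9998) for Fth1, Lypd1 (0.9987) for Trf, Ccdc92b (0.9969) and Gid8 (0.9969) for Tfrc, and Jag2 (0.9974) and Pias2 (0.9963) for Hmox1. The 9 libraries share 3 group levels, so r describes those levels. Cox6a1, a subunit of cytochrome c oxidase, was 8632, 8707 and 8300 in WT-Control, 10212, 10147 and 10298 in HD-Control and 54071, 56889 and 64377 in HD-WNT5B. With the length and GC trend removed the HD-WNT5B differences from WT-Control turned to 0.36 for Lypd1 and 0.53 for Pias2.

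Beyond the members, 94 further iron genes were listed in 7 groups by function, also with earlier results known, and 89 passed the filter. In HD-Control against WT-Control 43 were called (29 higher, 14 lower), where 45.1 percent of all tested genes were called. In HD-WNT5B against HD-Control 78 were called (33 higher, 45 lower), where 77.5 percent of all tested genes were called. All counts by list below are to be read beside these 2 shares, and no list is set apart by them. Their median log2 differences were 0.14 and -0.54, beside 0.02 and -0.23 for all genes. The p-values below are Benjamini-Hochberg adjusted p from limma. Most genes named were picked from their list for the smallest p in these same data. Their p-values are therefore part of the description and give no independent support. With the length and GC trend removed, several HD-WNT5B log2 differences from HD-Control changed in size with the same direction and call. Among them, Blvra at 1.42, Fdxr at 2.38 and Gclc at -2.64 were smaller in size. Fbxl5 at 1.42, Pcbp1 at -2.47 and Lcn2 at -3.31 were larger in size.

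Of the 14 iron uptake and reduction genes tested, 11 were called in HD-Control against WT-Control (9 higher, 2 lower; median 0.56), beside 24.5 percent of all genes higher and 20.7 percent lower. Slc25a28, a mitochondrial iron importer, was 1366 ± 14.6, 3629 ± 2.91 and 9509 ± 742 in the 3 groups, higher in HD-Control by 1.41 (limma adjusted p = 8.5e-07) and in HD-WNT5B by a further 1.39 (adjusted p = 5.1e-08), a difference of 0.83 with equal library totals and 0.43 with the length and GC trend removed. Mcoln1, a lysosomal cation channel that releases iron, rose by 0.75 in HD-Control (limma adjusted p = 0.00014) and fell by 0.91 in HD-WNT5B against HD-Control (adjusted p = 9.5e-06). Lcn2, the siderophore-binding lipocalin, was 5.26 ± 2.27, 1776 ± 31.7 and 514 ± 289 in WT-Control, HD-Control and HD-WNT5B. Steap4, a metalloreductase, was 27.8 ± 6.69 in WT-Control and 64.2 ± 12.1 in HD-Control and is listed at 0 in all 3 HD-WNT5B libraries. In HD-WNT5B against HD-Control the list had 2 genes higher and 7 lower of 14, beside 35.8 and 41.7 percent of all genes.

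Of 9 tested iron export and hepcidin control genes, 2 were higher in HD-Control and 0 lower, where 45.1 percent of all genes were called. These were Tmprss6, the protease that restrains hepcidin induction, at 114.7 ± 7.73, 299 ± 12 and 1690 ± 431 in the 3 groups (log2 1.36, limma adjusted p = 0.00055 in HD-Control; log2 2.46, adjusted p = 3.3e-06 in HD-WNT5B against HD-Control), and Prnp, the prion protein, at log2 0.70 (adjusted p = 4e-06). In HD-WNT5B 2 of the 9 were higher and 5 lower than in HD-Control, among them App at -1.76 (adjusted p = 2.2e-07) and Prnp at -0.99 (adjusted p = 4.3e-08).

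Ferritin partners and iron chaperones were called in 6 of 6 tested genes in HD-WNT5B against HD-Control, 2 higher and 4 lower, where 77.5 percent of all genes were called. Pcbp1, which delivers iron to ferritin, was 6933 ± 162, 8344 ± 90.1 and 2331 ± 253, a log2 difference of -1.84 from HD-Control (limma adjusted p = 3.1e-08). Fbxl5, the iron-sensing partner of the ligase that removes IRP2, was 5014 ± 215, 6215 ± 164 and 9420 ± 801 and rose by 0.60 (adjusted p = 2.7e-05), a difference of 0.04 that was not called with equal library totals. Ncoa4, the receptor that takes ferritin to the lysosome, was chosen after its values were seen. It was 1931 ± 53.2, 2204 ± 50.6 and 197 ± 87.3 in the 3 groups, a log2 difference of -3.59 in HD-WNT5B against HD-Control, given as a description.

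Iron-sulphur cluster genes were called in 21 of 22 in HD-WNT5B against HD-Control, 12 higher and 9 lower (median 0.72), beside 77.5 percent of all genes. In HD-Control against WT-Control 7 of 22 were called, 5 higher and 2 lower, a smaller share than the 45.1 percent of all genes. Glrx5, a mitochondrial glutaredoxin that passes on clusters, was 1182 ± 40.9, 1579 ± 41.2 and 11081 ± 1065 (log2 2.80 in HD-WNT5B, limma adjusted p = 2.6e-09). Fdxr, ferredoxin reductase, was 601 ± 36.8, 545 ± 6.49 and 4477 ± 288 (log2 3.03, adjusted p = 3.3e-09). Hspa9, the mitochondrial chaperone, rose by 0.70 in HD-Control (adjusted p = 8.8e-07) and fell by 0.92 in HD-WNT5B against HD-Control (adjusted p = 9.3e-09), a difference of -1.47 with equal library totals and -0.16 with the length and GC trend removed.

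**Figure D5:**
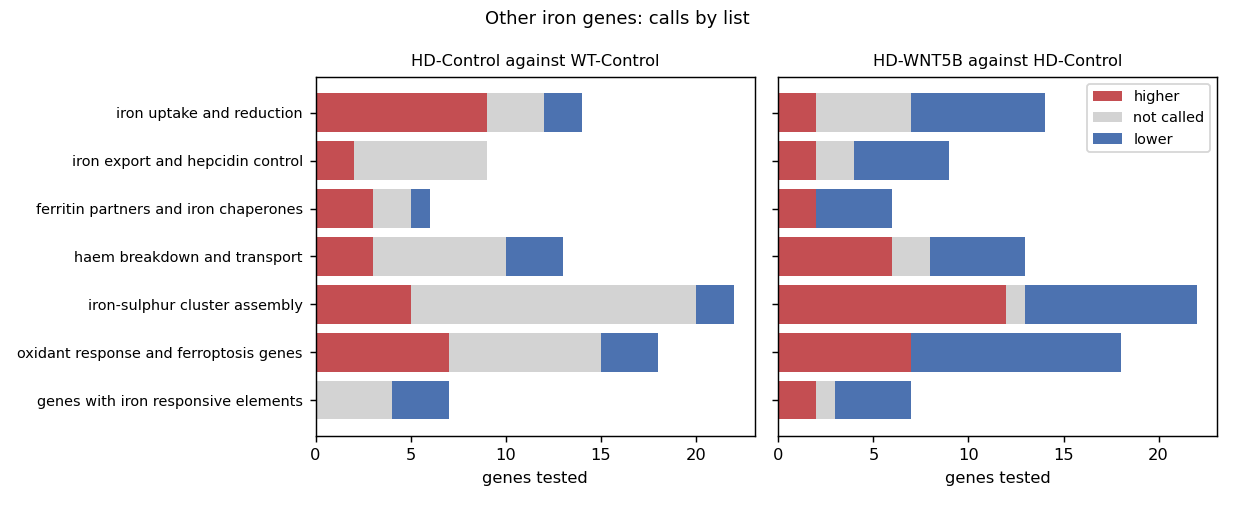
Number of tested genes called higher, not called or called lower in each of 7 lists of other iron genes, for HD-Control against WT-Control (left) and HD-WNT5B against HD-Control (right). Iron uptake and reduction shows 9 higher and 2 lower on the left and 2 higher and 7 lower on the right.

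All 18 oxidant response and ferroptosis genes tested were called in HD-WNT5B against HD-Control (7 higher, 11 lower), and 10 in HD-Control against WT-Control (7 higher, 3 lower), where 77.5 and 45.1 percent of all genes were called. Nqo1, a quinone reductase under NRF2, was 279 ± 22.3, 550.2 ± 13.9 and 1204 ± 80.9, higher in HD-Control by 0.97 (limma adjusted p = 0.00016) and in HD-WNT5B by a further 1.12 (adjusted p = 1.6e-05). Gclc, the catalytic subunit of glutathione synthesis, rose by 0.54 in HD-Control (adjusted p = 0.027) and fell by 3.38 in HD-WNT5B against HD-Control (adjusted p = 1.6e-07). Gpx4, which reduces lipid peroxides, was 6834 ± 207, 9792 ± 173 and 30054 ± 4886, log2 1.60 in HD-WNT5B (adjusted p = 7.9e-07), a difference of 0.06 that was not called with the length and GC trend removed. Slc7a11, the cystine importer, fell by 1.16 in HD-Control (adjusted p = 1.8e-05). Its HD-WNT5B difference from HD-Control was -0.28 and turned to 1.23 with the trend removed.

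Among haem genes, 6 of 13 were called in HD-Control (3 higher, 3 lower) and 11 of 13 in HD-WNT5B against HD-Control (6 higher, 5 lower), near the 45.1 and 77.5 percent of all genes. Blvra, biliverdin reductase, the step after Hmox1, was 546 ± 24.8, 554 ± 40.8 and 2250 ± 50.1, log2 2.02 in HD-WNT5B (limma adjusted p = 7.1e-08), whereas Hmox1 was lower there. Slc46a1, a haem and folate carrier, fell by 1.12 in HD-Control (adjusted p = 0.0015). Of the 7 other genes known for iron responsive elements, 3 were lower in HD-Control and 0 higher, and 4 were lower and 2 higher in HD-WNT5B against HD-Control. Over all genes 20.7 percent were lower in HD-Control, and 41.7 percent lower and 35.8 percent higher in HD-WNT5B. Alas2, the red cell enzyme of haem synthesis and also a red blood cell gene, was 93.1 ± 12.1, 29.3 ± 8.61 and 206 ± 136.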

How the data were processed

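The authors deposited 1 table per library with a normalized signal for each protein-coding gene; 97.45 to 98.53 percent of values under 100 reads fall on whole multiples (tolerance 0.01) of a step per library, the rest being fractions, and none is divided by length. Read totals are estimates from that step. Per the submitters' processing notes, STAR and mm10 were used. What counted and normalized the reads, and every version, is not given in the sources used here. The 21853 identifiers all matched GENCODE M21, which gave symbols, positions and transcripts; listed genes with newer symbols (Hjv, Skp1, Fdx2, Ciao3) were matched by synonym.

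The 15411 genes reaching 10 in 3 or more libraries were fitted with limma 3.58.1 in R 4.3.3 on log2(value + 3), 1 mean per group, a variance trend and Benjamini-Hochberg adjustment over all genes (threshold 0.05). The added 3 understates changes of low genes. The procedure was tested on simulated data that held no length or GC trend and no difference between HD-WNT5B and HD-Control. That test therefore says nothing on how such a trend affects the results. A planned count model was not used, because the values are not counts. Members and lists were chosen with earlier results of these data known. The text names all 10 members, per other list the 3 genes with the smallest p in each of 2 comparisons (described where they bear on the members), and the 2 most correlated genes for 4 members. A few genes the rule selects are left out of the text. Values per kilobase use the principal transcript of each gene. The labels' kit does not mark strand.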

Additional observations from a re-analysis of the deposited data

How the results depend on the processing

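For HD-Control against WT-Control, a weight per group or a fit of only the 2 groups compared called 10 of the 10 members (8 higher, 2 lower) in place of 5, and 81 of the 89 other iron genes in place of 43; over all genes the weighted fit called 82.9 percent in place of 45.1. Leaving out 1 library gave 4 to 8 members and 30 to 57 other iron genes in that comparison, with 8 members without HD-WNT5B replicate 1 or replicate 2. It gave 8 to 10 members and 71 to 81 other genes in HD-WNT5B against HD-Control, and 8 to 10 and 69 to 82 in HD-WNT5B against WT-Control. Of 600 differences of members recomputed, 548 kept direction and call, 23 lost the call, 25 gained one and 4 reversed. Reversals with the length and GC trend removed (chosen after seeing the data) were Ftl1 at -1.17 against HD-Control and -0.54 against WT-Control, Tfrc at 0.58 against WT-Control, Gclm at 0.18 against HD-Control and 0.51 against WT-Control, Hspa9 at 0.52, Neo1 at 0.23, Lypd1 at 0.36 and Pias2 at 0.53 against WT-Control, and Slc7a11 at 1.23 against HD-Control. Slc11a2 reversed to -0.30 against HD-Control with equal library totals. The cause was not tested. Cp against WT-Control, at -0.72, lost its call in 8 of the 9 fits that left out 1 library.

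Libraries with the same replicate number did not deviate together (correlations of -0.078 to 0.021 over 9 pairs). With the number as a replicate block, members called were 5, 9 and 9 and other iron genes 39, 78 and 72 in the 3 comparisons. The planned edgeR alternative was not run, since whole reads could not be recovered to the standard set for a count test. The lower depth and larger scatter of the HD-WNT5B libraries limit what can be said of low genes such as Slc40a1 and Hmox1.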
